A study of Mus musculus with 12 samples.

Results

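The genes described here encode the proteins of the mitochondrial ribosome, and they were followed through kidneys of mice given cisplatin, dichloroacetate, both or neither. They were taken as every row of the count table whose Ensembl identifier belongs to a protein-coding mouse gene with a symbol of Mrpl or Mrps followed by digits. This gave 77 of the 28991 genes in the table, 48 Mrpl and 29 Mrps symbols. Mrpl33 carries such a symbol in the annotation but was not analysed here. All 77 genes passed the filter on low counts, which left 20370 genes of the table for testing.

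Whole-kidney RNA was sequenced in 12 libraries, 4 groups of 3, and every mouse was a BALB/c male of 8 weeks. Combination mice received dichloroacetate at 250 mg/kg into the peritoneum daily for 5 days and then 1 injection of cisplatin at 20 mg/kg with dichloroacetate, and their kidneys were taken 24 h later. Cisplatin mice received saline daily for 5 days and the same single cisplatin injection, also with collection after 24 h. Dichloroacetate mice received 250 mg/kg daily for 6 days, and saline mice received saline daily for 6 days. Cisplatin is a platinum drug for solid tumours whose dose is limited by injury to kidney tubules, and dichloroacetate inhibits the kinases that switch off pyruvate dehydrogenase. The series asks whether dichloroacetate protects the kidney from cisplatin. Levels are counts per 1000000 (CPM) of a library total adjusted by the trimmed mean of M values (TMM), and every fold change is on the log2 scale.

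The mitochondrial ribosome, or mitoribosome, translates the few mRNAs that mitochondrial DNA encodes, all of them for subunits of the respiratory chain and ATP synthase. Its rRNAs are transcribed from mitochondrial DNA, while all of its proteins are encoded in the nucleus, made in the cytosol and imported. Many of these proteins descend from bacterial ribosomal proteins, and the others were gained by mitochondria. Proximal tubule cells are rich in mitochondria and reabsorb solutes with ATP made by oxidation, so the tubule relies on this translation. Symbols follow an old numbering by subunit that later structures revised. The product of Mrps18a and that of Mrps30 sit in the large subunit, and the product of Mrps36 is now assigned to the 2-oxoglutarate dehydrogenase complex.

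Promoters of 4 genes are shown because each gene ranks among the 6 largest falls (Mrps21, Mrpl12) or the 6 largest rises (Mrps18b, Mrpl45) after cisplatin and its promoter holds the motif of NRF1, a known regulator of mitochondrial genes. Each runs 5′ to 3′ from 250 bases before to 50 bases after the RefSeq transcription start, in build GRCm38.p6. Capitals mark matches, on either strand, to the letters GCGCANGCG of nuclear respiratory factor 1 (NRF1) or CCGGAAG of ETS factors such as GABPA. These factors are known for regulating nuclear genes of mitochondrial proteins, and a match on the opposite strand appears as the reverse complement.

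Mrps21 (chr3:95871465-95871764, minus strand): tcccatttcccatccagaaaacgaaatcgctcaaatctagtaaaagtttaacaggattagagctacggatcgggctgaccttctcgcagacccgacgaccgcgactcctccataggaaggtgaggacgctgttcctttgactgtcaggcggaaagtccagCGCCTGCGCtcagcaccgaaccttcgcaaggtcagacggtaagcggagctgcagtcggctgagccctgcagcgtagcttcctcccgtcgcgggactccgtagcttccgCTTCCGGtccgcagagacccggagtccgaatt
Mrpl12 (chr11:120484387-120484686, plus strand): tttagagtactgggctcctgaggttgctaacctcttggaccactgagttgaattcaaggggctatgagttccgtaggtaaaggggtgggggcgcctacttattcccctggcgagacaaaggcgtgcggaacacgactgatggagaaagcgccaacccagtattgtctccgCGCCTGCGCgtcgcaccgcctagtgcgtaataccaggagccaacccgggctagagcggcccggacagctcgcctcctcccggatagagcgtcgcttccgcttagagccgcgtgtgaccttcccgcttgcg
Mrps18b (chr17:35916391-35916690, minus strand): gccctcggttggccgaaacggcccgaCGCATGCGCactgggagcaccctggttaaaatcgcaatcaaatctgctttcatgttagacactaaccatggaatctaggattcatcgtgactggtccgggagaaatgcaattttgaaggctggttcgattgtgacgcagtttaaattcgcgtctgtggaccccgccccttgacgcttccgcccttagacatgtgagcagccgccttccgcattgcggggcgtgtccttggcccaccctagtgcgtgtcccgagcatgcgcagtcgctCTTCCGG
Mrpl45 (chr11:97315466-97315765, plus strand): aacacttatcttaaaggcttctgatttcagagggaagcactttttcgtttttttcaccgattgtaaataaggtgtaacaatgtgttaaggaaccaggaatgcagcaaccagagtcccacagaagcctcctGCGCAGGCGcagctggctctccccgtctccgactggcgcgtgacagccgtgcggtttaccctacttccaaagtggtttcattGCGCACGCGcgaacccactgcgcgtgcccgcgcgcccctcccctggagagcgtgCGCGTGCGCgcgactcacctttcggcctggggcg

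These 4 were picked for their NRF1 match, of which Mrpl45 held 3. Of the other leading genes with a RefSeq promoter, Mrpl57 held one too, and Mrps36, Mrps5, Mrpl50, Mrpl35 and Mrpl52 held none. RefSeq promoters were matched for 68 of the 77 genes. The NRF1 letters were present in 16 of these 68 (23.5%), against 10.8% of the promoters of 15526 other genes in the table. Those other genes were not limited to the ones that passed the filter on low counts, as all 77 members did. They were not matched to the members by level or base content, so part of each difference may come from that. The ETS letters were present in 25 (36.8%), against 14.6% of the other promoters. The letters AANATGGC of the factor YY1 were present in 21 (30.9%), against 7.88%. At least 1 of the 3 motifs was found in 47 of the 68 promoters (69.1%) and in 28.2% of the others, and no matches of different motifs shared bases in the 68. By call after cisplatin, NRF1 letters were in 7 of 17 promoters of higher genes, 5 of 17 of lower genes and 4 of 34 of genes with no call. YY1 letters were in 2, 4 and 15 of these promoters, and any of the 3 motifs in 76.5%, 64.7% and 67.6%, with none of these splits tested. These matches describe the letters only and locate no binding.

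Averaged over all 12 libraries, levels ran from 15.1 CPM for Mrps28 to 168 CPM for Mrpl12, with a median of 39.7. Per kilobase of the principal transcript, the highest levels were those of Mrpl12 (127 CPM per kb), Mrps21 (108) and Mrpl42 (105). The lowest were those of Mrpl19 (4.45 CPM per kb), Mrpl1 (7.04) and Mrpl17 (7.18), against a median of 28.1. These ranks depend on the annotated transcript lengths, of 5000, 3556 and 7300 bases for these genes. Without division by length, Mrpl17 averaged 52.4 CPM, above the median of 39.7. Mrpl12 encodes the stalk protein that recruits translation factors, and the product of Mrpl10 anchors it. After cisplatin Mrpl42 fell by 0.23 ± 0.06 on the log2 scale, a call lost at -0.16 without cisplatin mouse 1, while Mrpl17 rose by 0.40 ± 0.06 and Mrpl19 by 0.32 ± 0.06. On plain totals, Mrpl42 turned to 0.05. Mrpl19 shares 36.0% of its exon bases with the opposite-strand Gcfc2.

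Library totals were 29505929 to 62237514 counts, and cisplatin-injected mice had the smaller ones. TMM factors were 1.02 to 1.05 in combination libraries and 1.114 to 1.151 in cisplatin libraries, against 0.8936 to 0.92 in dichloroacetate libraries and 0.9099 to 0.9641 in saline libraries. The choice of scaling therefore moves all genes together, by 0.28 for cisplatin over saline when plain library totals are used. The labelled tissue was checked against kidney markers. Summed levels of 5 proximal tubule markers were 3900 to 4490 CPM in combination, 2190 to 2600 in cisplatin, 7500 to 8530 in dichloroacetate and 8160 to 9300 in saline kidneys. The 4 thick limb and distal tubule markers summed to 1570 to 2460, 1680 to 2160, 3520 to 3970 and 3760 to 4290 CPM in the same order. Sums for markers of other cells were also lower in both injected groups for macrophages (57.3 to 64.6, 53.6 to 59.2, 70.7 to 101 and 85.8 to 99.1 CPM), endothelium (67.7 to 85.1, 75.8 to 79.6, 99.3 to 114 and 99.4 to 138), podocytes (146 to 165, 150 to 170, 176 to 196 and 189 to 216) and erythroid cells (29.8 to 36.3, 20.6 to 44.3, 74.7 to 203 and 80.5 to 194). The macrophage sum was mostly Csf1r, at 40.4 to 45 CPM in cisplatin and 74.2 to 84.2 CPM in saline kidneys. Adgre1 was also lower in both injected groups, while C1qa and C1qb overlapped between these groups and saline. Neutrophil markers, mostly Ly6g, were not lower in cisplatin kidneys, at 16.3 to 21.2, 23.5 to 28.4, 20 to 23.9 and 15.2 to 24 CPM in the same group order. Collecting duct sums overlapped between all groups, at 288 to 373 CPM, and lymphocyte markers stayed at or below 1.31 CPM. In whole tissue, fewer cells of a type and less RNA per cell cannot be told apart, and the part of these marker shifts in the results was not tested.

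The first comparison asks how a single dose of cisplatin changed these genes within 24 h. Cisplatin kidneys had 19 of the 77 genes higher and 20 lower than saline kidneys, and 38 did not pass the test. The same test called 29.7% of all genes higher and 30.4% lower, and the members' own shares were 24.7% and 26.0%. Their median log2 fold change was -0.01, equal to the median of -0.01 over all genes tested. The family thus split in 2 directions at this scaling, as did the table as a whole. Scaled by plain totals, 53 genes were higher and 6 lower, with a median of 0.27 beside 0.26 over all genes. Of all genes tested, 9749 were then higher and 3596 lower.

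**Figure D1:**
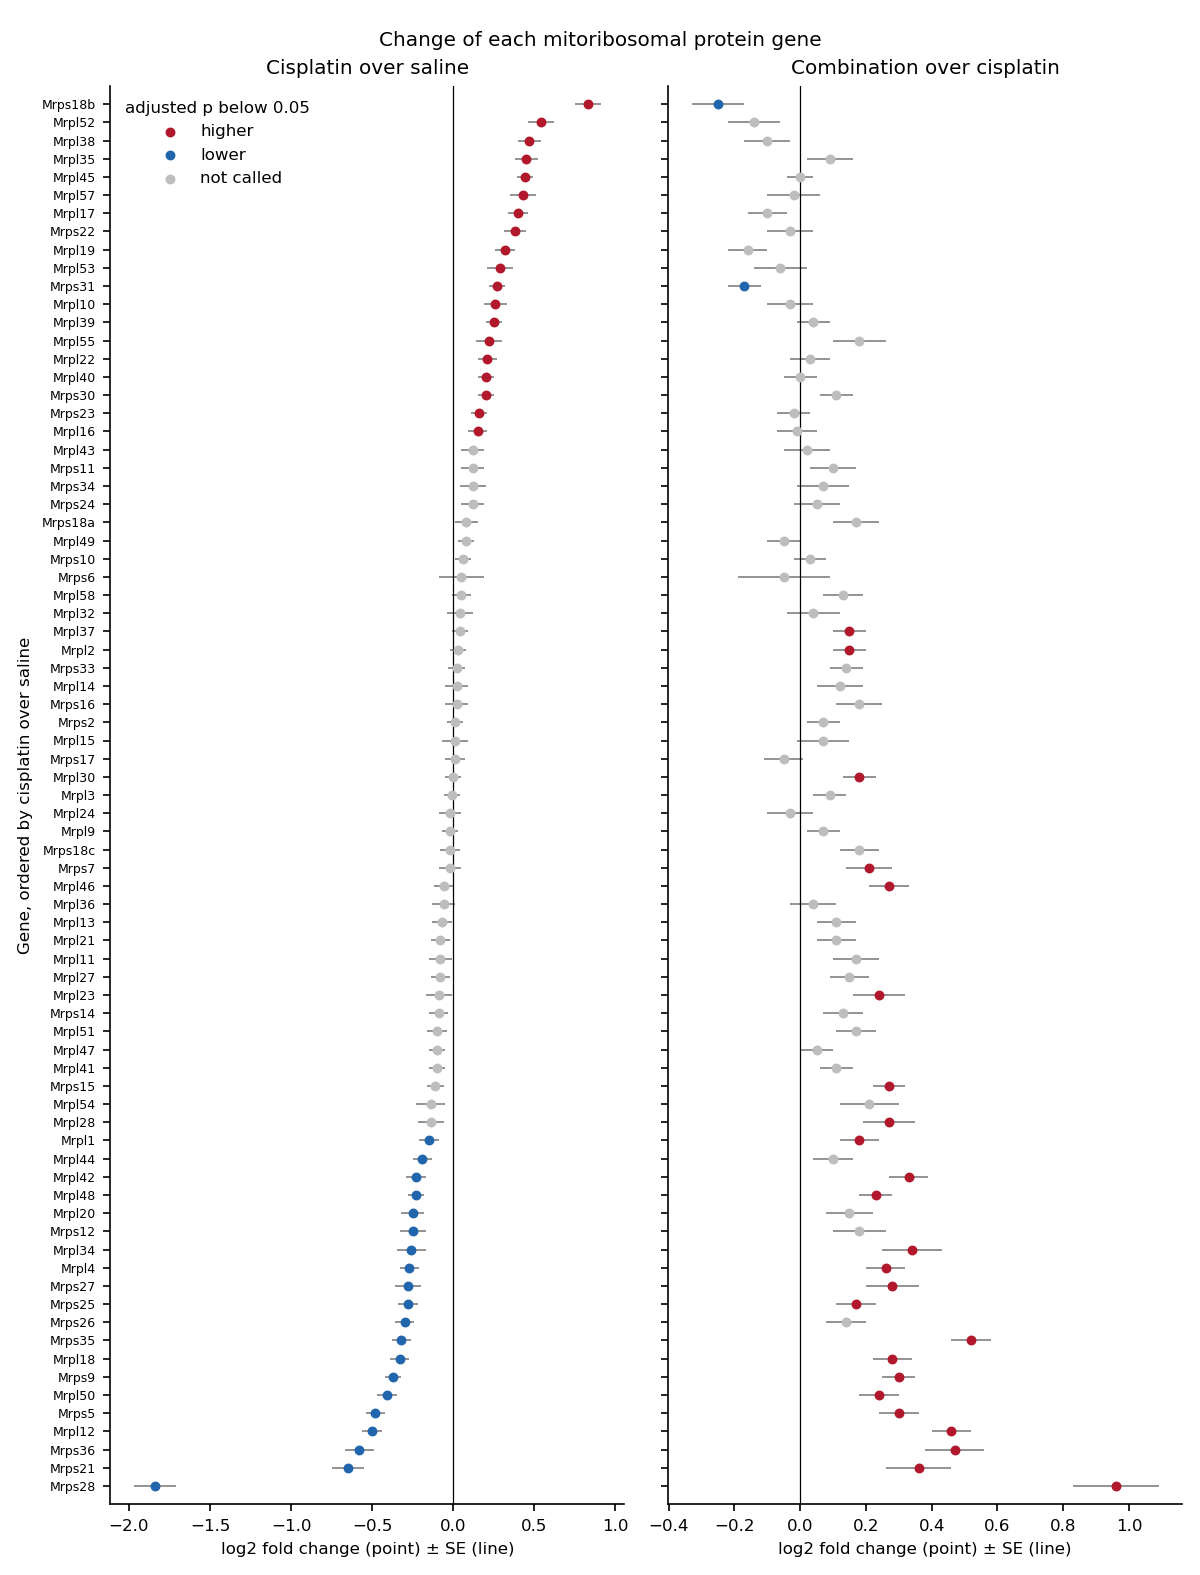
Log2 fold change of each of the 77 genes (points, lines ± SE) for cisplatin over saline on the left and combination over cisplatin on the right, in 1 shared gene order. On the left 19 genes were called higher and 20 lower, and on the right 24 were called higher and 2 lower; both panels use the same cisplatin mice.

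Mrps28, a small-subunit protein related to bacterial S1, fell most. Its level was 4.80, 5.86 and 6.93 CPM in cisplatin kidneys, against 17.9, 21.3 and 23.9 CPM in saline kidneys. The groups did not overlap, and the log2 fold change was -1.84 ± 0.13 (SE; adjusted p = 3.6e-08). Mrps28 also has the longest gene of the family, spanning 121773 bases on chromosome 3 (8802146 to 8923918, minus strand, GRCm38).

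The next largest falls were much smaller. Mrps21, a bacterial-type protein of the small subunit, had 36.0, 40.1 and 37.1 CPM in cisplatin kidneys, against 49.7, 56.7 and 70.9 CPM in saline kidneys. Every cisplatin value lay below every saline value (-0.65 ± 0.10, adjusted p = 7.5e-05). Mrps36, named for the ribosome but now placed in a dehydrogenase complex, had 25.2, 27.4 and 28.4 CPM in cisplatin kidneys, against 35.5, 38.5 and 47.0 CPM in saline kidneys. It fell by 0.58 ± 0.09 on the log2 scale (adjusted p = 7.2e-05) with no overlap, and without it the family held 19 genes higher and 19 lower.

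Mrpl12, whose protein forms the stalk and is also known from human cells to bind the mitochondrial RNA polymerase, had 118, 130 and 136 CPM in cisplatin kidneys, against 171, 184 and 191 CPM in saline kidneys. The groups were apart, with a log2 fold change of -0.50 ± 0.06 (adjusted p = 1.3e-05). Of its exon bases, 13.05% overlap the opposite-strand Gm16755, which averaged 58.7 CPM in cisplatin and 84.6 CPM in saline kidneys. The sources do not say whether reads were assigned by strand. Over those bases reads of the pair cannot be told apart if strand was ignored, and the neighbour's part in this fall was not tested.

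Mrps5, homologous to bacterial S5 of the small subunit, had 36.7, 39.8 and 41.4 CPM in cisplatin kidneys, against 50.7, 56.0 and 57.8 CPM in saline kidneys. All 3 cisplatin values were the lower ones (-0.48 ± 0.06, adjusted p = 2.3e-05). Mrpl50, a large-subunit protein gained by mitochondria, had 58.4, 63.3 and 67.1 CPM in cisplatin kidneys, against 78.3, 85.7 and 86.2 CPM in saline kidneys. It likewise showed no overlap (-0.41 ± 0.06, adjusted p = 5.8e-05). Under plain library totals, these 6 falls were smaller but were still called, at -1.56 for Mrps28, -0.37 for Mrps21, -0.30 for Mrps36, -0.23 for Mrpl12, -0.20 for Mrps5 and -0.13 for Mrpl50.

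The largest rise was that of Mrps18b, 1 of 3 mammalian relatives of bacterial S18. Mrps18b had 73.9, 66.9 and 61.9 CPM in cisplatin kidneys, against 34.3, 38.5 and 41.3 CPM in saline kidneys. The lowest cisplatin value was well above the highest saline value (0.83 ± 0.08, adjusted p = 1e-06). Gm16279, an antisense gene that shares 30.54% of the exon bases of Mrps18b, averaged 56.6 CPM in cisplatin and 36.0 CPM in saline kidneys, and over those bases reads of the pair cannot be told apart if strand was ignored.

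The other S18 relatives did not pass the test. Mrps18a, whose protein lies in the large subunit, averaged 43.6 ± 1.12 CPM in cisplatin and 41.3 ± 4.08 CPM in saline kidneys (SD, n = 3 each), with overlapping values and a log2 fold change of 0.08 ± 0.07. Mrps18c, the closest to the bacterial protein, averaged 20.6 ± 0.28 and 20.9 ± 1.17 CPM in cisplatin and saline kidneys, with a log2 fold change of -0.02 ± 0.06.

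Large-subunit genes made up the other 5 of the 6 leading rises. Mrpl52 had 32.6, 37.1 and 31.2 CPM in cisplatin kidneys, against 20.3, 22.8 and 26.3 CPM in saline kidneys (0.54 ± 0.08, adjusted p = 9.2e-05). Mrpl38 had 97.4, 93.2 and 86.5 CPM in cisplatin kidneys, against 63.7, 66.0 and 70.4 CPM in saline kidneys (0.47 ± 0.07, adjusted p = 3.6e-05). In both, the cisplatin values were all above the saline values. Mrpl35, a bacterial-type protein, had 44.2, 41.1 and 43.1 CPM in cisplatin kidneys, against 28.4, 31.5 and 34.1 CPM in saline kidneys (0.45 ± 0.07, adjusted p = 8.6e-05). Mrpl45, which ties the large subunit to the inner membrane near the exit of the nascent chain, had 48.2, 48.0 and 46.0 CPM in cisplatin kidneys, against 34.8, 34.7 and 35.2 CPM in saline kidneys. Its values were the tightest of these genes (0.44 ± 0.05, adjusted p = 1.7e-06). Mrpl57 had 29.1, 31.0 and 26.5 CPM in cisplatin kidneys, against 18.6, 21.5 and 24.3 CPM in saline kidneys, again without overlap (0.43 ± 0.08, adjusted p = 0.00052).

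**Figure D2:**
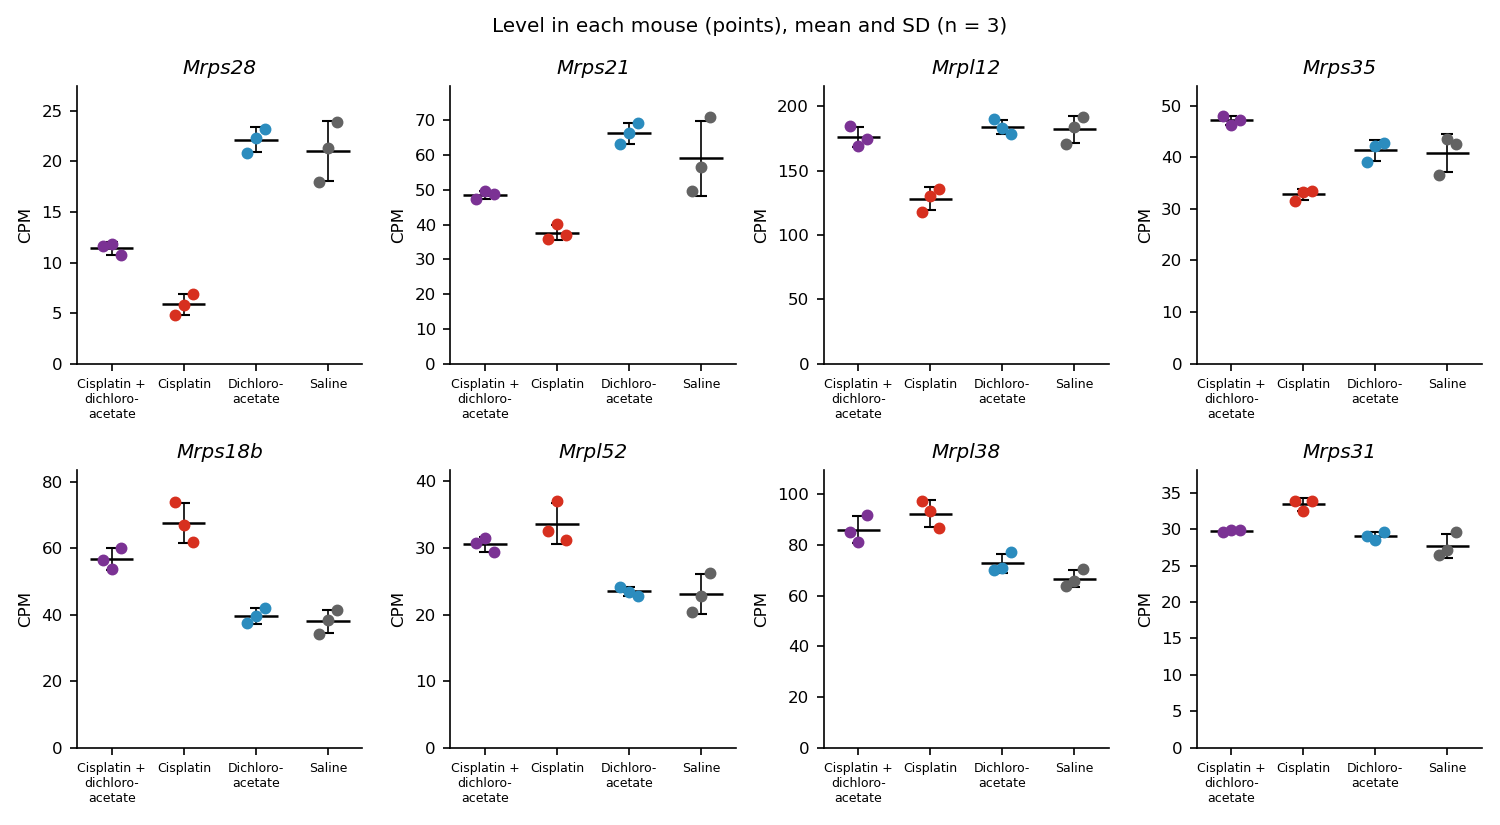
Level in CPM of 8 genes in each mouse (points) with the group mean and SD (n = 3 per group); groups run from combination through cisplatin and dichloroacetate to saline. Mrps28 stood lowest in cisplatin kidneys, at 4.80 to 6.93 CPM, while Mrps18b stood highest there, at 61.9 to 73.9 CPM.

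Other members with known roles changed in both directions. Mrpl10, the anchor of the stalk, rose after cisplatin (0.26 ± 0.07, adjusted p = 0.0054; 14.05% of its exon bases overlap the opposite-strand Gm11574) while Mrpl12, the stalk itself, fell. Mrps30, which encodes a large-subunit protein despite its name, rose by 0.20 ± 0.05 on the log2 scale (adjusted p = 0.003). Mrpl18, which binds RNA in the central protuberance, fell by 0.33 ± 0.06 (adjusted p = 0.00034), and Mrpl44, a relative of RNase III, fell by 0.19 ± 0.06 (adjusted p = 0.012), a call lost without saline mouse 3 (-0.14). With plain library totals Mrpl18 was at -0.05 with no call, and Mrpl44 turned to 0.09.

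Other genes of interest did not pass the test. Mrpl58, which releases stalled chains as a peptidyl-tRNA hydrolase, stood at 0.05 ± 0.06, Mrpl36 at -0.06 ± 0.07 and Mrpl41 at -0.10 ± 0.05. Mrps6 stood at 0.05 ± 0.14 and had the widest spread of these genes, with 65.8, 74.7 and 86.5 CPM in cisplatin kidneys and 72.0, 70.7 and 76.0 CPM in saline kidneys. It shares 10.37% of its exon bases with Slc5a3.

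By subunit label, 14 of 48 Mrpl genes were higher and 10 lower after cisplatin (median -0.01), and 5 of 29 Mrps genes were higher and 10 lower (median 0.01). The difference between these subsets was not tested. Of the 7 genes spanning over 30 kb, 6 were lower and none was higher, with a median of -0.28, while 2984 of all 6529 tested genes of that span were lower and 1293 higher, with a median of -0.22. The 17 members of 10 to 30 kb held 5 higher and 3 lower (median 0.04). All 5323 tested genes of that span held 1890 higher and 1402 lower (median 0.06). The 53 members up to 10 kb held 14 higher and 11 lower (median -0.02). All 7972 tested genes up to 10 kb held 2731 higher and 1693 lower (median 0.12). Across the 77 genes the fold change had a Spearman correlation of -0.13 and a Pearson correlation of -0.31 with log2 span. On plain totals, 1 of the 7 long members was lower and their median was 0.00. All genes of that span then held 2396 higher and 1902 lower (median 0.05).

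Dichloroacetate alone called no gene of the family. None of the 77 was higher or lower than in saline kidneys by edgeR's quasi-likelihood test with Benjamini-Hochberg adjustment, and none by DESeq2. At an unadjusted p under 0.05, edgeR found 9 of the 77 higher and 1 lower. At that threshold 1162 of the 20370 genes tested were higher and 1265 lower. After adjustment the background was equally thin, at 0.128% of all genes higher and 0.182% lower. Fold changes lay between -0.11 (Mrpl40) and 0.19 (Mrps18a), with a median of 0.06 beside -0.01 over all genes. Mrps18a averaged 47.1 ± 2.5 CPM in dichloroacetate and 41.3 ± 4.08 CPM in saline kidneys (SD, n = 3 each), and the values overlapped.

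The comparison of combination with cisplatin asks what dichloroacetate changed in injected mice. Combination kidneys had 24 of the 77 genes higher and 2 lower than cisplatin kidneys, against a background of 18.1% of all genes higher and 13.5% lower. The members' shares were 31.2% and 2.6%, and their median of 0.12 compared with 0.01 over all genes. Scaling decides the balance: with plain library totals 12 were higher and 10 lower, with a median of -0.01 against -0.11 over all genes, so the members stayed above the table's median under both. Among all genes, plain totals gave 2317 higher and 5134 lower. Without cisplatin mouse 1, 12 members were called higher under TMM.

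Mrps28 led again. It had 11.6, 11.9 and 10.7 CPM in combination kidneys, against 4.80, 5.86 and 6.93 CPM in cisplatin kidneys, a log2 fold change of 0.96 ± 0.13 (adjusted p = 0.00011). The combination values were all above the cisplatin values and all below the 17.9 to 23.9 CPM of saline kidneys, from which they differed by -0.88 ± 0.12 (adjusted p = 6.5e-05). Mrps28 was therefore intermediate in combination kidneys.

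Mrps35, a small-subunit protein gained by mitochondria, had 48.0, 46.2 and 47.2 CPM in combination kidneys, against 31.5, 33.3 and 33.6 CPM in cisplatin kidneys. The groups were far apart (0.52 ± 0.06, adjusted p = 5.9e-05). Mrps36 had 36.1, 35.8 and 40.1 CPM in combination kidneys, against 25.2, 27.4 and 28.4 CPM in cisplatin kidneys, also without overlap (0.47 ± 0.09, adjusted p = 0.0013). Mrpl12 had 185, 169 and 175 CPM in combination kidneys, against 118, 130 and 136 CPM in cisplatin kidneys (0.46 ± 0.06, adjusted p = 0.00014). Its combination values overlapped those of saline mice, at 171, 184 and 191 CPM. The antisense Gm16755 moved alike, with 81.4 CPM in combination and 58.7 CPM in cisplatin kidneys.

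Mrps21 had 47.3, 49.6 and 48.8 CPM in combination kidneys, against 36.0, 40.1 and 37.1 CPM in cisplatin kidneys (0.36 ± 0.10, adjusted p = 0.013), a call lost at 0.31 without cisplatin mouse 1. Mrpl34, a small bacterial-type protein, had 30.6, 29.7 and 29.0 CPM in combination kidneys, against 21.1, 24.8 and 24.8 CPM in cisplatin kidneys (0.34 ± 0.09, adjusted p = 0.0092), lost at 0.24 without the same mouse. In neither gene did the groups overlap. Mrpl18 was higher as well, at 0.28 ± 0.06 (adjusted p = 0.0029). Scaled by plain totals, the 6 leading genes kept their calls, at 0.83 for Mrps28, 0.40 for Mrps35, 0.34 for Mrps36, 0.33 for Mrpl12, 0.24 for Mrps21 and 0.21 for Mrpl34.

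Of the 2 genes that were lower, Mrps18b had 56.4, 53.6 and 60.1 CPM in combination kidneys, against 73.9, 66.9 and 61.9 CPM in cisplatin kidneys. The 2 groups came close but did not overlap (-0.25 ± 0.08, adjusted p = 0.026), and the call was lost without cisplatin mouse 1 (-0.21) or 2 (-0.26) or combination mouse 1 (-0.25) or 2 (-0.21). Mrps31, a small-subunit protein gained by mitochondria, had 29.6, 29.9 and 29.8 CPM in combination kidneys, against 33.9, 32.4 and 33.9 CPM in cisplatin kidneys. The change was small and clear of overlap (-0.17 ± 0.05, adjusted p = 0.02), and it lost its call without cisplatin mouse 3 (-0.16) or combination mouse 1 (-0.16) or 2 (-0.17).

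Of the genes with the largest rises after cisplatin, 5 had no call between combination and cisplatin kidneys. Mrpl45 averaged 47.4 ± 1.89 and 47.4 ± 1.19 CPM in combination and cisplatin kidneys (SD, n = 3 each; 0.00 ± 0.04). Mrpl35 stood at 0.09 ± 0.07, Mrpl57 at -0.02 ± 0.08, Mrpl38 at -0.10 ± 0.07 and Mrpl52 at -0.14 ± 0.08, none of them called. Under plain totals Mrpl38 (-0.23) and Mrpl52 (-0.26) were called lower, and Mrpl45 (-0.13), Mrpl57 (-0.15) and Mrpl35 (-0.04) were not. These 2 comparisons share the cisplatin mice, so their values are given side by side only.

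In mice given dichloroacetate throughout, the effect of cisplatin is read from combination over dichloroacetate. Here 16 of the 77 genes were higher and 8 lower, against a background of 21.5% and 19.2% of all genes. The median was 0.03 for the members and 0.01 for all genes. Under plain library totals, 55 members were higher and 2 lower, beside 8458 higher and 2225 lower of all genes tested. The count of higher genes was 10 without dichloroacetate mouse 1, 9 without dichloroacetate mouse 2 and 8 without combination mouse 3, and the count of lower genes was 4 without dichloroacetate mouse 3 and 5 without combination mouse 1.

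The leading rises were Mrps18b at 0.52 ± 0.08 (adjusted p = 0.00018), Mrpl35 at 0.39 ± 0.07 (adjusted p = 0.00056), Mrpl45 at 0.38 ± 0.05 (adjusted p = 1.7e-05) and Mrpl52 at 0.38 ± 0.09 (adjusted p = 0.003). Mrpl40 averaged 30.8 ± 0.423 CPM in combination and 24.8 ± 0.923 CPM in dichloroacetate kidneys (0.32 ± 0.05, adjusted p = 0.00017). Mrps22, mutated in a human mitochondrial disease of heart and kidney tubule, averaged 24.6 ± 0.85 and 19.8 ± 1.14 CPM in these groups (SD, n = 3 each; 0.31 ± 0.07, adjusted p = 0.0032). These 6 genes were picked as the largest called rises, so their lack of overlap between the groups is no separate support.

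The falls were led by Mrps28, with 11.6, 11.9 and 10.7 CPM in combination kidneys against 20.8, 22.4 and 23.2 CPM in dichloroacetate kidneys (-0.96 ± 0.12, adjusted p = 2.9e-05). Mrps21 followed, with 47.3, 49.6 and 48.8 CPM in combination kidneys against 63.3, 66.3 and 69.4 CPM in dichloroacetate kidneys (-0.45 ± 0.10, adjusted p = 0.0025). Both genes were apart between the groups and stayed called with plain library totals, at -0.76 and -0.26. The other 6 falls were Mrps36 at -0.25 ± 0.09, Mrps5 at -0.24 ± 0.06, Mrpl44 at -0.21 ± 0.06, Mrpl18 at -0.19 ± 0.06, Mrpl47 at -0.17 ± 0.05 and Mrps9 at -0.15 ± 0.05. With plain library totals those 6 had no call, at -0.06, -0.05, -0.01, 0.01, 0.02 and 0.04. The Mrps36 call was also lost without any 1 of the dichloroacetate mice or without combination mouse 1 or 2, at -0.26 to -0.22, and that of Mrpl18 without dichloroacetate mouse 1 (-0.17) or 3 (-0.18) or combination mouse 1 (-0.17). Mrpl47 lost its call without dichloroacetate mouse 3 (-0.16) or combination mouse 2 (-0.15), and Mrps9 without dichloroacetate mouse 2 or 3 (-0.14 each) or combination mouse 1 (-0.14) or 3 (-0.16). Mrpl47 shares 13.94% of its exon bases with the opposite-strand Ndufb5 and 10.23% with Actl6a.

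Against saline, combination kidneys had 28 genes higher and 5 lower, beside 20.6% and 19.6% of all genes, with a median of 0.10 for the members and 0.01 for all genes. Mrps18b stood at 0.58 ± 0.08 (adjusted p = 8.1e-05), Mrpl35 at 0.54 ± 0.07 (adjusted p = 4.7e-05) and Mrpl45 at 0.44 ± 0.05 (adjusted p = 5.4e-06). Mrps28 was the clearest of the 5 lower genes. Without saline mouse 1 the count of higher genes was 17, and without combination mouse 3 it was 16. The count of lower genes was 1 without saline mouse 2 or 3 or any combination mouse, 2 without cisplatin mouse 2 and 3 without dichloroacetate mouse 2. On plain totals, 58 members were higher and 1 lower, beside 7482 higher and 2508 lower of all genes tested.

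The interaction measures how far the log2 response to cisplatin with dichloroacetate differed from the response without it. It was called upward in 5 genes and downward in 1, against a background of 11.4% and 7.15% of all genes, with the members' shares at 6.49% and 1.3%. The 5 were Mrps28 (0.88 ± 0.17, adjusted p = 0.0034), Mrps35 (0.51 ± 0.09, adjusted p = 0.002), Mrpl12 (0.44 ± 0.09, adjusted p = 0.0045), Mrpl4 (0.27 ± 0.08, adjusted p = 0.041) and Mrpl50 (0.27 ± 0.09, adjusted p = 0.043). All 5 fell after cisplatin alone, but that response is subtracted in the interaction and uses the same mice, so the 2 signs are not independent. The 1 downward gene was Mrps31 (-0.24 ± 0.07, adjusted p = 0.031), which rose after cisplatin alone. Mrpl4 lost its call without any single mouse but saline mouse 1, at 0.20 to 0.31 over these fits, and Mrpl50 without any but saline mouse 1 and cisplatin mouse 3, at 0.19 to 0.32. Mrps31 lost it, at -0.28 to -0.20, without saline mouse 1 or 2, dichloroacetate mouse 1 or 3, cisplatin mouse 3 or combination mouse 1 or 2. Without saline mouse 1 the upward count was 10, and without any other mouse except cisplatin mouse 3 it was 3. The downward count was 4 without saline mouse 3 and 3 without combination mouse 3.

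Mrps35 was the only gene of the 77 called in opposite directions by the 2 responses. It was 0.19 ± 0.06 higher in combination than in dichloroacetate kidneys (adjusted p = 0.03) and 0.32 ± 0.06 lower in cisplatin than in saline kidneys (adjusted p = 0.00077). Combination kidneys had 48.0, 46.2 and 47.2 CPM, against 39.1, 42.2 and 42.8 CPM in dichloroacetate kidneys. Without overlap, these combination values were the highest of the 4 groups, saline kidneys having 36.6, 43.5 and 42.5 CPM. The opposite directions rest on the scaling, since with plain library totals the cisplatin response was -0.04 with no call and the other was 0.38. DESeq2 and its size factors also left the rise over dichloroacetate uncalled, at 0.17, as did leaving out dichloroacetate mouse 1 (0.15) or 2 (0.20) or combination mouse 1 or 3 (0.18 each).

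Mrpl4, a bacterial-type protein near the exit tunnel, had 74.0, 69.4 and 71.1 CPM in combination kidneys, 60.6, 60.1 and 58.3 CPM in cisplatin kidneys, 70.9, 71.2 and 73.6 CPM in dichloroacetate kidneys and 67.7, 69.8 and 78.8 CPM in saline kidneys. Only the cisplatin group stood apart. Scaled by plain totals, its response to cisplatin alone was 0.01. The interactions of Mrpl4 and Mrpl50 were then 0.18 each with no call, while Mrps28, Mrps35, Mrpl12 and Mrps31 kept theirs at 0.80, 0.42, 0.36 and -0.32.

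**Figure D3:**
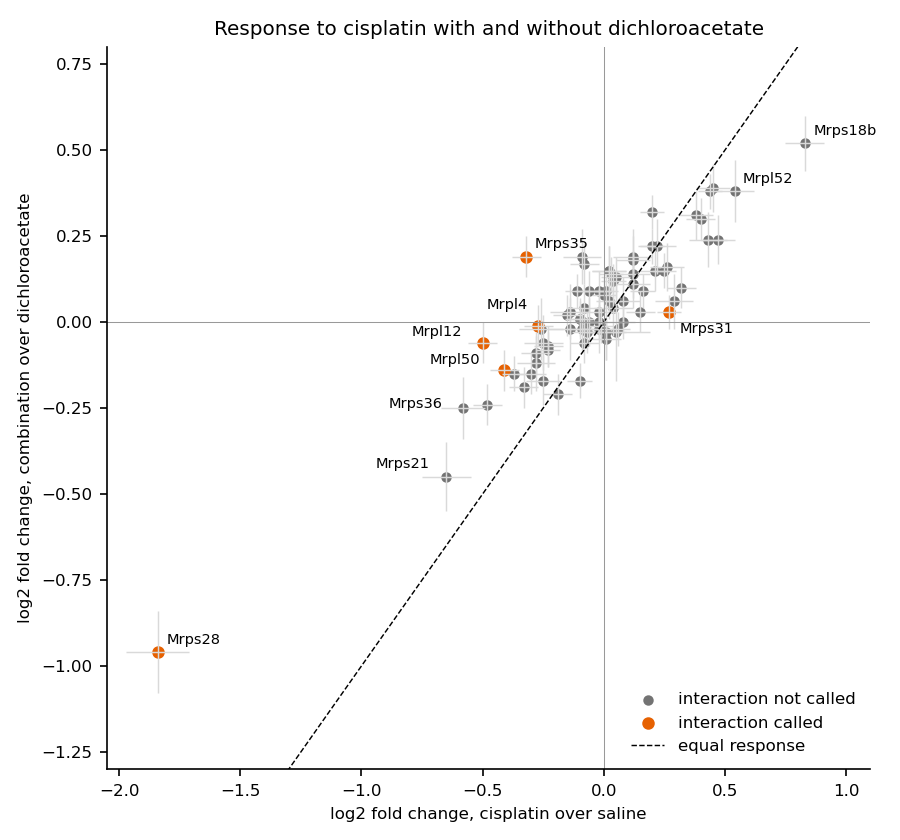
Log2 fold change of each of the 77 genes for combination over dichloroacetate (vertical axis) against cisplatin over saline (horizontal axis), with SE bars and a dashed line of equal response. Orange points are the 6 genes with a called interaction, of which Mrps28, Mrps35, Mrpl12, Mrpl4 and Mrpl50 lie above the line and Mrps31 below it.

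Across the 77 genes the 2 responses, which share no mice, ran together with a Pearson correlation of 0.90 and a Spearman correlation of 0.80. This describes genes within 1 experiment, which are not independent replicates, and all libraries share 1 scaling. Of the 19 genes higher after cisplatin alone, 12 were also higher in combination over dichloroacetate and 7 had no call. Of the 20 lower genes, 7 were lower again, 12 had no call and 1 was Mrps35. The matching correlations and overlaps over all genes are not given, so these values are not read as particular to this family.

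Summed over the family, the level was 3526 ± 25.4 CPM in combination, 3232 ± 52.1 in cisplatin, 3446 ± 32.3 in dichloroacetate and 3304 ± 255 in saline kidneys (SD, n = 3 each). Saline mice spread widely, at 3056, 3292 and 3565 CPM, and covered the cisplatin range of 3189 to 3290. Under plain library totals, the order changed: combination and cisplatin kidneys had 3617 to 3685 and 3582 to 3738 CPM, above the 3108 to 3141 CPM of dichloroacetate and the 2945 to 3243 CPM of saline kidneys. The direction of the summed level after cisplatin thus depends on the scaling.

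**Figure D4:**
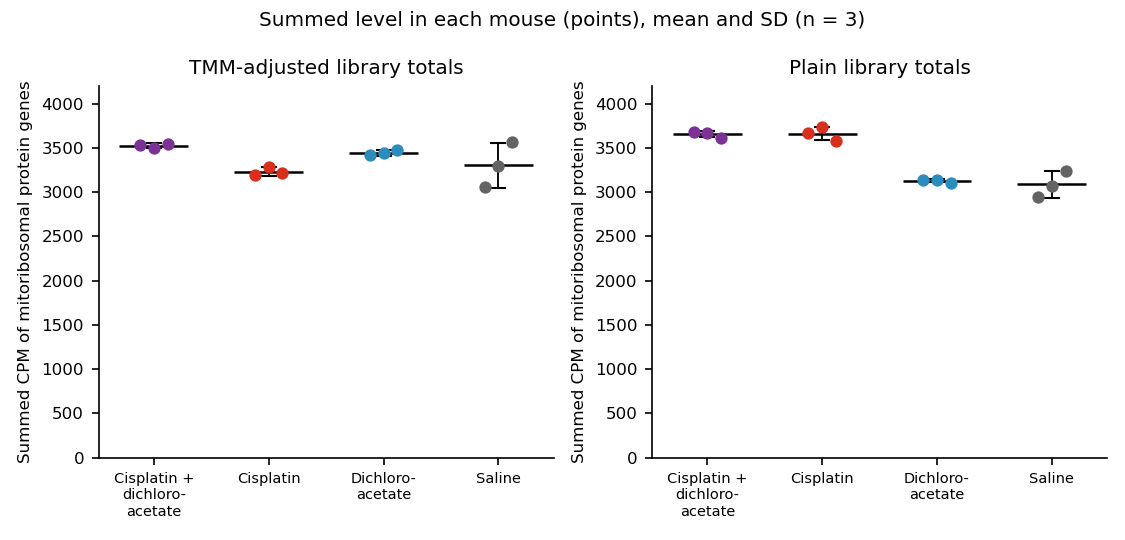
Summed CPM of the 77 genes in each mouse (points) with group mean and SD (n = 3 per group), under TMM-adjusted library totals on the left and plain library totals on the right. On the left the saline mice (3056 to 3565) cover the cisplatin mice (3189 to 3290), and on the right the cisplatin mice (3582 to 3738) lie above all saline mice (2945 to 3243).

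Other ribosome genes and the machinery around the mitoribosome were read from lists. Cytosolic ribosomal proteins, which share the translation task but not the compartment, were higher after cisplatin in 64 of 82 tested genes and lower in 5, with a median of 0.27. The list was taken by symbol, so it holds relatives such as Rps27l, a known p53 target (1.01 ± 0.07), Rpl22l1 (-1.06 ± 0.06) and Rpl3l (-0.73 ± 0.23). Rpl12, a ribosomal protein proper, was the other leading rise of the list (0.65 ± 0.06). In combination over cisplatin only 3 were higher and 3 lower, with a median of -0.01, led by Rpl3l (0.80 ± 0.23) and Rpl10 (0.18 ± 0.06) upward and by Rps19bp1 (-0.30 ± 0.09), a binding partner of a ribosomal protein, and Rpl12 (-0.29 ± 0.06) downward. On plain totals Rpl3l after cisplatin (-0.45) and Rpl10 in combination over cisplatin (0.05) had no call. With plain library totals 77 genes of this list were higher and 1 lower after cisplatin, but 1 was higher and 37 lower in combination over cisplatin. The mitoribosomal genes were split 19 to 20 after cisplatin under TMM, beside the 64 and 5 of the cytosolic list. On plain library totals 53 mitoribosomal genes were higher and 6 lower, beside 77 and 1. The difference between the families was not tested.

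Of 16 tested mitochondrial translation factors, 10 were lower and none higher after cisplatin (median -0.28), and 10 were higher and none lower in combination over cisplatin (median 0.23). On plain totals, the balance after cisplatin was 6 higher and 5 lower, and 5 were higher and none lower in combination over cisplatin. Gfm2, which recycles ribosomes, fell by 0.91 ± 0.06 on the log2 scale, and Tsfm, the nucleotide exchange factor of the elongation factor Tu, fell by 0.71 ± 0.06. In combination over cisplatin, Tsfm was 0.45 ± 0.06 higher and Lrpprc, which stabilises mitochondrial mRNAs, 0.46 ± 0.07 higher. Of 17 mitochondrial aminoacyl-tRNA synthetases, 3 were higher and 7 lower after cisplatin. Fars2, the phenylalanine enzyme, had 4.26, 4.55 and 5.40 CPM in cisplatin kidneys, against 42.5, 47.3 and 47.4 CPM in saline kidneys (-3.27 ± 0.08, adjusted p = 9.8e-12). Rars2 fell by 0.95 ± 0.08, while Mars2 rose by 0.63 ± 0.08 and Tars2 by 0.33 ± 0.06. In combination over cisplatin 8 were higher and none lower, led by Fars2 (1.00 ± 0.09) and Nars2 (0.56 ± 0.10). Plain library totals gave 9 synthetases higher and 4 lower after cisplatin, and 6 higher and 3 lower in combination over cisplatin.

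Of 28 assembly factors, 9 were higher and 8 lower after cisplatin (median 0.02). Mettl15, which methylates the small-subunit rRNA, fell by 2.77 ± 0.18, and Mtg1, a GTPase, by 0.27 ± 0.07, while Mpv17l2 rose by 0.52 ± 0.05 and Trub2, a pseudouridine synthase, by 0.36 ± 0.05. In combination over cisplatin 6 were higher and 1, Trub2, was lower (-0.18 ± 0.05), with Mettl15 at 1.13 ± 0.20 and Mtg1 at 0.29 ± 0.07. Scaled by plain totals, 17 were higher and 1 lower after cisplatin, Mtg1 standing at 0.01 with no call, and 2 were higher and 12 lower in combination over cisplatin. Of 5 other mitoribosome components without a matching symbol, Dap3 rose by 0.19 ± 0.06 and Chchd1 by 0.24 ± 0.08 after cisplatin, and none was called in combination over cisplatin. Under plain library totals, Chchd1 was lower in that comparison (-0.24).

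**Figure D5:**
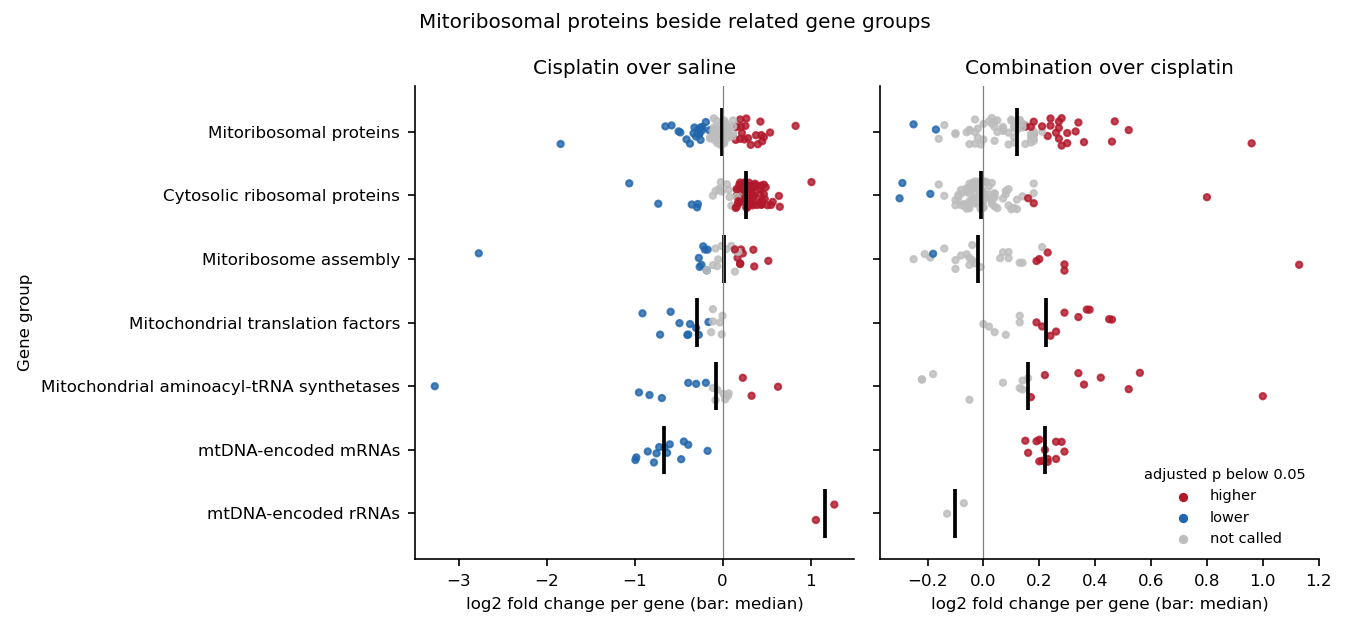
Log2 fold change per gene (points, coloured by call) with the group median (bar) for the mitoribosomal proteins and 6 related groups, in cisplatin over saline on the left and combination over cisplatin on the right. The mitoribosomal proteins straddle 0 on the left, where 64 of 82 cytosolic ribosomal proteins were called higher and all 13 mRNAs of mitochondrial DNA lower (with plain library totals mt-Nd1 turned to 0.10, uncalled). Plain library totals, not drawn, gave 53 mitoribosomal genes higher and 6 lower, and 77 cytosolic ones higher and 1 lower.

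The RNA partners of these proteins come from mitochondrial DNA. The 13 mRNAs it encodes were all lower after cisplatin, from mt-Cytb (-0.99 ± 0.06) and mt-Nd4l (-0.98 ± 0.06) to mt-Nd1 (-0.17 ± 0.05), and all higher in combination over cisplatin, led by mt-Cytb (0.29 ± 0.06) and mt-Nd4 (0.28 ± 0.05). With plain library totals mt-Nd1 turned to 0.10 after cisplatin with no call, the other 12 stayed lower, and in combination over cisplatin mt-Cytb (0.16) and mt-Nd4 (0.15) alone were called. The small-subunit rRNA mt-Rnr1 had 649, 618 and 696 CPM in combination, 721, 751 and 670 in cisplatin, 353, 387 and 606 in dichloroacetate and 246, 296 and 346 in saline kidneys. Both injected groups lay above both others, and cisplatin over saline was 1.27 ± 0.17 (adjusted p = 2e-05). The large-subunit rRNA mt-Rnr2 stood at 1.06 ± 0.14 (adjusted p = 2.5e-05), and neither rRNA was called in combination over cisplatin, at -0.13 ± 0.17 and -0.07 ± 0.14. The rRNA level depends on how RNA was selected, which the sources do not state. Gm26917, an rRNA-like nuclear locus named after its values were seen, averaged 243 CPM in combination, 557 in cisplatin, 55.9 in dichloroacetate and 54.3 in saline kidneys. Gm42418, another such locus, averaged 786 ± 68.7, 1160 ± 206, 935 ± 1140 and 582 ± 84.3 CPM in the same order (SD, n = 3 each).

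Transcription factors and coactivators of mitochondrial genes changed in both directions after cisplatin, with 5 of 9 higher and 4 lower. Ppargc1a, the coactivator PGC-1 alpha, fell by 0.80 ± 0.10 and was 0.55 ± 0.10 higher in combination than in cisplatin kidneys. Ppargc1b fell by 1.02 ± 0.14, Esrra, an orphan nuclear receptor, by 0.25 ± 0.06 and Gabpa by 0.36 ± 0.05. Nrf1 rose by 0.29 ± 0.07, Pprc1 by 1.16 ± 0.10 and Myc by 2.96 ± 0.16. In combination over cisplatin Myc was lower (-1.60 ± 0.15), Pprc1 was lower (-0.89 ± 0.10) and Esrra was higher (0.24 ± 0.06). On plain totals, Esrra stood at 0.03 and Gabpa at -0.08 after cisplatin, both uncalled, and Esrra at 0.12 in combination over cisplatin, also uncalled. Gabpb1 and Yy1 were called higher after cisplatin under both scalings, at 0.92 and 0.55 on plain totals. Both were called lower in combination over cisplatin, at -0.54 and -0.29 on plain totals. Of the 4 genes of mitochondrial transcription, Tfb2m fell by 0.34 ± 0.05 after cisplatin, while Tfam (-0.11 ± 0.05) and the polymerase Polrmt (-0.11 ± 0.06) did not pass the test, and none was called in combination over cisplatin. Scaled by plain totals, Tfb2m was at -0.07 with no call, and Tfam and Polrmt were higher at 0.17 each.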

How the data were processed

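Counts of reads per gene were deposited by the authors for 12 whole-kidney total RNA libraries prepared with a TruSeq kit. The submitters' processing notes name Trimmomatic, TopHat, Cufflinks, HTSeq, bedtools, DESeq and build mm10, without versions or roles. The sources do not state strand use in counting or poly(A) selection. The authors' normalised table was not used. The series' design gives 3 biological replicates per treatment.

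Ensembl identifiers were matched to GENCODE M21 (GRCm38) for 27955 of 28991 rows. edgeR 4.0.16 (R 4.3.3, limma 3.58.1) was run on the deposited counts with filterByExpr, TMM scaling and 1 fit of group means over all libraries. Quasi-likelihood tests were two-sided, adjusted by Benjamini-Hochberg over 20370 genes and called at an adjusted p below 0.05; the common biological coefficient of variation was 0.092 with 8 residual degrees of freedom. SE is the log2 fold change divided by the square root of F. The interaction is combination minus dichloroacetate, less cisplatin minus saline. Library totals ranged from 29505929 to 62237514 counts. The pipeline was tested on simulated data.

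The members and lists were chosen with earlier results of these data known. Genes named are up to 6 called members with the largest rises and falls per comparison, a fixed set of members (the S18 relatives and stalk proteins among them), the highest and lowest levels per kilobase, and the leading genes of each list. Leading genes were picked by the tests, so groups that do not overlap are no separate support. The share of all genes without overlap is not given. Alternatives were DESeq2 1.42.0 and its size factors, upper-quartile scaling, no low-count filter, no mitochondrially encoded genes, only the groups compared, a replicate block, each library left out and, added after the data were seen, plain library totals. Replicate numbers were not used to pair mice: no label ties them, and the correlation of same-numbered mice did not exceed 0.1 in every pair of any comparison. Protein sequences were not used here.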

Additional observations from a re-analysis of the deposited data

Results flagged for a closer look

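A called interaction, meaning that the log2 response to cisplatin differed between mice given dichloroacetate and mice given saline beforehand, was found for 6 of the 77 genes. Mrps28 (0.88), Mrps35 (0.51) and Mrpl12 (0.44) kept the call with each library left out, at 0.73 to 1.03, 0.45 to 0.58 and 0.36 to 0.49. Mrpl4 (0.27) lost it in 11 of 12 such fits, Mrpl50 (0.27) in 10 and Mrps31 (-0.24) in 7. These calls come from 1 test over all genes, in which 11.4% of genes were called upward and 7.15% downward. The antisense neighbour of Mrpl12 moved with it, and its part in the result was not tested.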

How the results depend on the processing

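Of 128 calls of members over the 6 comparisons, 61 held under every alternative run (20, or 19 for the interaction, which had no fit of only the groups compared), 21 of 39 for cisplatin over saline and 10 of 26 for combination over cisplatin. Plain library totals gave 53 higher and 6 lower (median 0.27) for cisplatin over saline, 12 and 10 (-0.01) for combination over cisplatin, 55 and 2 (0.22) for combination over dichloroacetate, 58 and 1 (0.25) for combination over saline, and 3 and 6 (-0.02) for the interaction. Over all genes the counts were 9749 and 3596, 2317 and 5134, 8458 and 2225, 7482 and 2508, and 1712 and 2383. That scaling shifted the median of all genes by 0.28, -0.13, 0.19, 0.15 and -0.08 in these comparisons, and raised the share of all calls that were higher for cisplatin over saline to 73.1%, against 49.4%. For combination over cisplatin that share was 31.1%, against 57.3%, for combination over dichloroacetate 79.2%, against 52.8%, for combination over saline 74.9%, against 51.3%, for dichloroacetate over saline 22.4%, against 41.3%, and for the interaction 41.8%, against 61.5%. Since it moves all genes together, it also turned the sign of smaller changes, none of them called there: Mrpl1 (0.12), Mrpl20 (0.03), Mrpl34 (0.02), Mrpl4 (0.01), Mrpl42 (0.05), Mrpl44 (0.09), Mrpl48 (0.04) and Mrps12 (0.03) for cisplatin over saline, and Mrpl18 (0.01), Mrpl47 (0.02) and Mrps9 (0.04) for combination over dichloroacetate. Summed levels became 3657 CPM in combination, 3663 in cisplatin and 3129 in dichloroacetate kidneys; leaving mitochondrially encoded genes out of the totals gave 4166, 4147 and 3688 CPM, with 3600 in saline kidneys. Combination over dichloroacetate had 10 genes higher under DESeq2 and under its size factors. Combination over saline had 2 lower without the filter and 2 with only the groups compared. The interaction had 3 higher under DESeq2's size factors and 3 without the filter, and 0 lower without the filter and 2 under DESeq2. The cause of these differences was not tested.

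With 1 library left out, counts were 16 to 24 higher and 16 to 27 lower for cisplatin over saline (median -0.07 to 0.04), 0 and 0 for dichloroacetate over saline (0.02 to 0.12), 12 to 33 and 0 to 3 for combination over cisplatin (0.09 to 0.15), 8 to 23 and 4 to 10 for combination over dichloroacetate (0.03 to 0.05), 16 to 38 and 1 to 5 for combination over saline (0.05 to 0.17), and 3 to 10 and 0 to 4 for the interaction (-0.01 to 0.12). The lone lower interaction, Mrps31, was lost without saline mouse 1 or 2, for example, and 4 were lower without saline mouse 3. With the replicate block, counts were 19 and 19, 0 and 0, 23 and 2, 14 and 8, 28 and 5, and 7 and 1 in the same order; deviations of same-numbered mice correlated at -0.10 to 0.15, and at 0.08 to 0.15 between combination and dichloroacetate mice, where all 6 correlated best with their own number. Over all genes DESeq2 called 187 higher and 163 lower for dichloroacetate over saline, against 26 and 37 by edgeR. With 3 mice a group, fold changes near 0.2 were often lost when 1 library was left out.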
